A study of Homo sapiens with 12 samples.

Results

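Semaphorins are guidance ligands, and plexins and neuropilins are their cell surface receptors. The set described here was picked by gene symbol from the deposited RNA-seq table. It holds every class 3 to class 7 semaphorin, A to D plexin and neuropilin found there. This rule used no measured value, but the set was chosen with earlier results of these data known. It has 31 of the 23346 genes in the table, namely 20 semaphorins, 9 plexins and 2 neuropilins. Of these, 28 had a mean of at least 0.1 RPKM over all samples and were tested, whereas *PLXNA4*, *SEMA5B* and *SEMA6D* did not. RPKM is the number of reads per kilobase of gene, scaled to library size, so levels given in RPKM can be compared between genes.

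SW1990 and CFPAC-1 are established human pancreatic adenocarcinoma cell lines in which some cells carry the GCTM-5 antigen and others do not. Cells of each line were stained with the GCTM-5 antibody and sorted into strongly stained (GCTM-5 positive) and unstained (GCTM-5 negative) cells, while cells between these gates were left out. Each of the 4 groups, GCTM-5 negative and positive SW1990 and GCTM-5 negative and positive CFPAC-1, has 3 samples from triplicate sorts. No group was drug treated or genetically changed, cells of all groups went through dissociation and staining, and each tumour is represented by a single cultured line. The sources used here do not say that the sorts began from separate cultures, so p-values measure the spread between these samples, which may be technical.

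Class 3 semaphorins are secreted and most of them bind a neuropilin, which passes the signal on through an A plexin, whereas *SEMA3E* binds plexin D1 directly. Class 4, 5 and 6 semaphorins are transmembrane proteins and *SEMA7A* is anchored to the membrane by a lipid; many class 4 members bind B plexins, class 6 members bind A plexins, and *SEMA7A* binds plexin C1 and integrins. The family was found through its repulsion of growing axons, and its members are also known to steer blood vessels, epithelial branching and the migration and invasion of carcinoma cells, pancreatic cancer included.

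Library totals ranged from 9969697 reads in GCTM-5 positive CFPAC-1 replicate 3 to 26159330 reads in GCTM-5 positive CFPAC-1 replicate 1. That shallow library also lay nearest of its group to the GCTM-5 negative mean for 15 of the 28 members, against 34.9% of all 16236 genes tested, and the part of this in the results was not tested. Both lines carried the 8 epithelial markers fixed for this check (among them *EPCAM* and *CDH1*). Their summed level was 1447 to 1681 RPKM in GCTM-5 negative and 4654 to 5013 RPKM in GCTM-5 positive SW1990 cells, where all 8 rose, and 6685 to 7685 RPKM in negative and 7237 to 8751 RPKM in positive CFPAC-1 cells, where their log2 differences ran from -0.74 to 0.70. The sum of 8 mesenchymal markers was 1305 to 1480 RPKM in negative and 219 to 404 RPKM in positive SW1990 cells. All 7 tested had a log2 difference below 0 there, and 6 were called lower by the criterion given below, against 7.48% of all genes. In CFPAC-1 the sum was 558 to 760 RPKM in negative and 428 to 600 RPKM in positive cells. There 6 of 7 were below 0 and 2 were called lower, against 4.13% of all genes. *TWIST1* was at 0 in all samples. Other cells known to express semaphorins left little trace of their defining genes: *PECAM1*, *VWF*, *TEK*, *TIE1*, *CLDN5*, *PTPRC*, *CD3E*, *ITGAM*, *S100B*, *RBFOX3* and *SYP* were all under 1 RPKM in every sample. Of the same lists, *LYZ* was at 0.816 to 76.9 RPKM over all samples, and *CD68*, *TUBB3*, *CDH5* and *TIE1* were called lower in positive SW1990 cells. There *CD68* was at 33.7 to 46.7 RPKM without the antigen and 15.1 to 32.6 RPKM with it, *TUBB3* at 108 to 116 and 38.5 to 59.6 RPKM, and *CDH5* at 14.2 to 17.7 and 1.16 to 1.63 RPKM. The part of these differences in the results below was not tested, and in sorted bulk samples a smaller share of cells with a transcript cannot be told apart from less transcript per cell.

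Promoter sequence is shown for 3 members because *ZEB1*, a repressor that binds the sequence CACCTG, which reads as CAGGTG on the other strand, was lower in positive cells of both lines. *ZEB1* was at 31.9 to 32.0 RPKM in negative and 2.31 to 2.91 RPKM in positive SW1990 cells, and at 5.94 to 7.65 and 2.48 to 2.56 RPKM in the CFPAC-1 groups, with log2 changes of -3.56 (SE 0.12, limma adjusted p = 1.48e-08) and -1.39 (SE 0.12, limma adjusted p = 1.91e-05). No other motif was searched for. RefSeq promoters (GRCh38.p14) were found for 27 of the 31 members, in 48 windows of the 250 bases before a transcript start, and not for *NRP1*, *SEMA3A*, *SEMA6A* and *SEMA6B*. Of these windows, 6, each of a different member, held the letters on either strand, or 12.5% against 17.5% of all 35116 windows of this length in the table. Those of *SEMA3B* (chr3:50267402-50267651, plus strand, 1 of 5 windows of the gene), *SEMA3F* (chr3:50154808-50155057, plus strand, 1 of 3) and *SEMA4A* (chr1:156149694-156149943, plus strand, 1 of 4) belong to members called in SW1990 and are printed with the match in capitals. The other windows with the letters belong to *PLXNB3*, *SEMA3G* and *SEMA4F*, which were not called in either line. *SEMA3B* and *SEMA4A* were higher and *SEMA3F* lower in positive SW1990 cells. In positive CFPAC-1 cells *SEMA3B* was lower, *SEMA4A* higher and *SEMA3F* not called. Any part of *ZEB1* in these changes was not tested, and a match is a description of letters and not a binding site.
SEMA3B: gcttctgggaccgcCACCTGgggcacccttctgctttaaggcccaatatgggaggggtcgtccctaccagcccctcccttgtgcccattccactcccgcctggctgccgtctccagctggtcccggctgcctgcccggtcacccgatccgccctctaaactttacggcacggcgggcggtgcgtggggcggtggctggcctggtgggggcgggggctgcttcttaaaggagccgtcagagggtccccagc
SEMA3F: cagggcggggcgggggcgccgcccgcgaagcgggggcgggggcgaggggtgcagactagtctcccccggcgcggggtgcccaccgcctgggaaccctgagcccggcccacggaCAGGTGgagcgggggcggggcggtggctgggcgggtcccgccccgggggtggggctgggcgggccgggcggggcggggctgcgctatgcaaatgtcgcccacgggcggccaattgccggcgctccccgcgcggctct
SEMA4A: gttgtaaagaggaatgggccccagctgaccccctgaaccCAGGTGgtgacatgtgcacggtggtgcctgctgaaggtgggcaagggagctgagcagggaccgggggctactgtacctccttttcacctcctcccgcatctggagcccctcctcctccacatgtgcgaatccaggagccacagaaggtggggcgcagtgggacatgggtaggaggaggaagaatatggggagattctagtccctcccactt

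**Figure D1:**
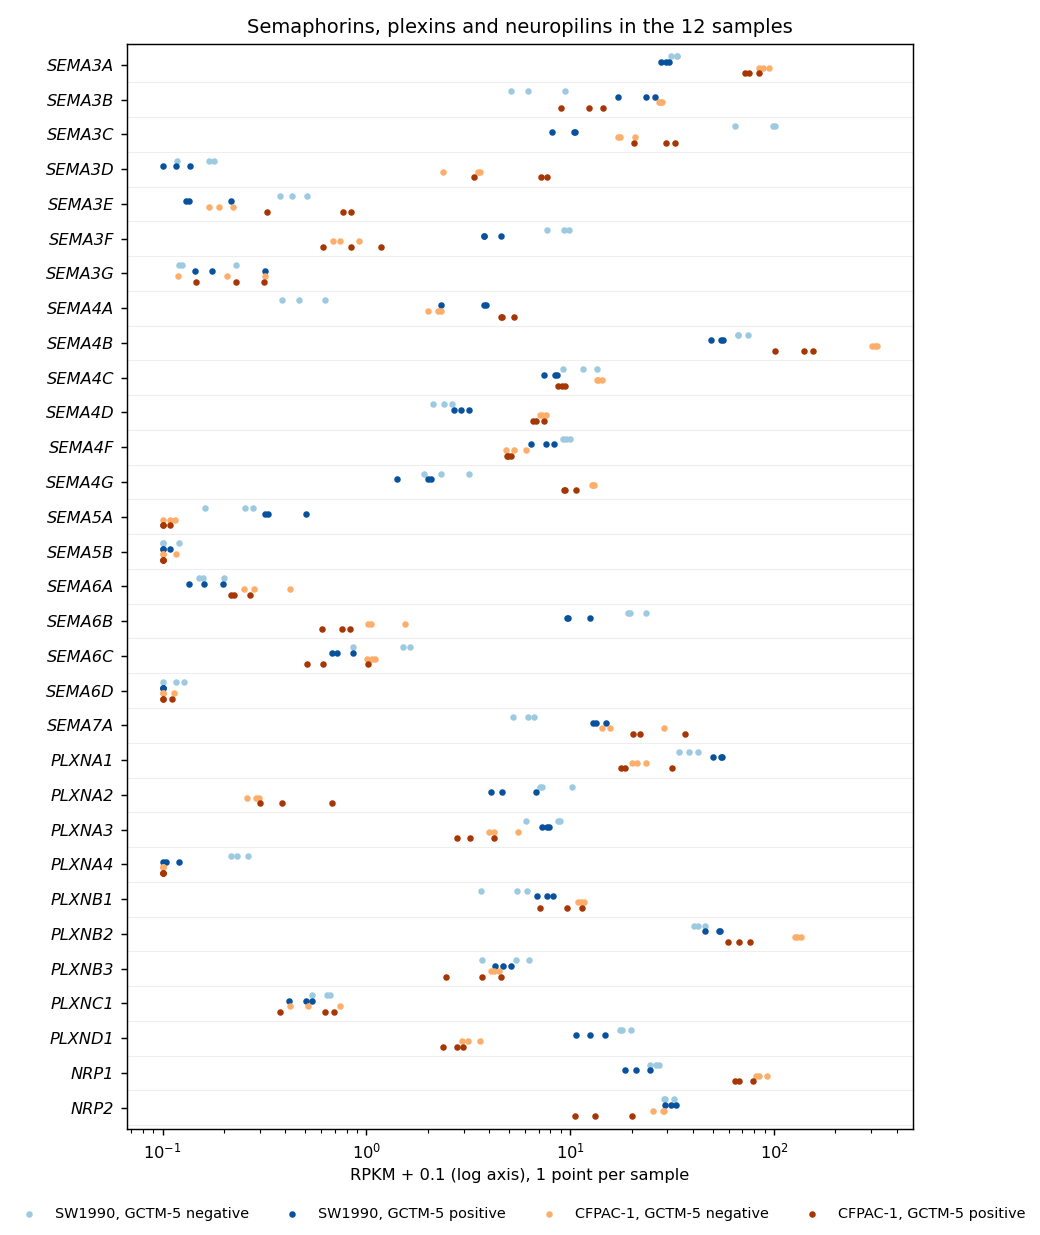
Level of each of the 31 members in each of the 12 samples, as RPKM plus 0.1 on a log axis, with 1 point per sample coloured by line and GCTM-5 group. *SEMA4B* reached the highest levels, 304 to 321 RPKM in GCTM-5 negative CFPAC-1 cells, and the points of *SEMA3C* and *SEMA4A* lie far apart between the GCTM-5 groups of SW1990.

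A member was called in a line when GCTM-5 positive and negative cells differed over 2-fold with an unadjusted p under 0.01 in a limma fit of log2(RPKM + 0.1) on all genes. Both thresholds are those of the study, whose p was read here as unadjusted. On this scale the change of a low gene is understated, and the adjusted p-values given are Benjamini-Hochberg values over all 16236 genes. In SW1990, positive cells had more *SEMA3B*, *SEMA4A* and *SEMA7A* transcript and less *SEMA3C*, *SEMA3E* and *SEMA3F*, so that 3 of 28 members rose, against 4.59% of all genes tested, and 3 of 28 fell, against 7.48%. In CFPAC-1, *SEMA3E* and *SEMA4A* rose, 2 of 28 against 5.65% of all genes, and *SEMA3B* and *SEMA4B* fell, 2 of 28 against 4.13%. In CFPAC-1 the 4 called members are 14.3% of those tested, close to the 9.78% called over all genes, and in SW1990 the 6 called are 21.4%, against 12.1%. All called members, among those past the level filter, were ligands. Most members tested are ligands too, with 8 plexins and 2 neuropilins among the 28. The receptors *NRP2* and *PLXNB2* missed only the 2-fold threshold in CFPAC-1. Their log2 differences there were -0.97 (limma adjusted p = 0.00147) and -0.96 (limma adjusted p = 6.65e-05). Without that filter the plexin *PLXNA4*, which rests on few reads, also met the criterion in SW1990, at a log2 change of -1.13 (limma adjusted p = 6.32e-05). By limma, 0 of 8 tested plexins and 0 of 2 neuropilins passed the criterion in either line. An unadjusted limma p under 0.05 was reached by 5 plexins and 1 neuropilin in SW1990 and 2 of each in CFPAC-1. The share of all genes under that p was not taken, so these counts have no background. Limma-voom on recovered reads called *NRP2* in CFPAC-1. *SEMA4A* alone was called in the same direction in both lines (1.84% of all genes were), and *SEMA3B* and *SEMA3E* were called in opposite directions (0.678% of all genes).

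Among the class 3 ligands, *SEMA3C*, a neuropilin ligand known from heart outflow tract development and from tumour invasion, showed the largest change of any tested member in size. In GCTM-5 negative SW1990 cells it was at 64.3, 98.2 and 101 RPKM, and in positive cells at 10.3, 10.4 and 8.05 RPKM. The groups were far from overlapping, with means of 87.9 ± 20.5 and 9.60 ± 1.34 RPKM (SD, n = 3 each), 9.16-fold lower in positive cells. The log2 change was -3.16 (SE 0.20, limma adjusted p = 4.57e-07). In CFPAC-1 the negative samples were at 20.6, 17.4 and 17.0 RPKM and the positive ones at 32.4, 29.3 and 20.5 RPKM. There positive replicate 3 lay just under the highest negative sample, and the log2 difference of 0.56 (SE 0.20, limma adjusted p = 0.0458) did not reach 2-fold.

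*SEMA3B*, a ligand described as a tumour suppressor in the lung, went in opposite directions in the lines. SW1990 cells held 6.09, 5.05 and 9.29 RPKM without the antigen and 17.1, 26.0 and 23.4 RPKM with it. CFPAC-1 cells held 27.0, 27.4 and 28.2 RPKM without and 8.92, 12.2 and 14.4 RPKM with it. The groups did not overlap in either line, and positive cells were 3.25-fold higher in SW1990 and 2.33-fold lower in CFPAC-1. The log2 changes were 1.71 (SE 0.23, limma adjusted p = 0.000138) and -1.24 (SE 0.23, limma adjusted p = 0.00157).

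*SEMA3F*, which acts mainly through neuropilin 2 and lies close to *SEMA3B* on chromosome 3, fell in SW1990. It was at 9.80, 7.58 and 9.25 RPKM in negative and 3.68, 4.46 and 3.68 RPKM in positive cells, without overlap. The log2 change was -1.15 (SE 0.23, limma adjusted p = 0.00256), and with a pseudocount of 1 it was -0.997 and not called. In CFPAC-1 it was low, at 0.643, 0.819 and 0.585 RPKM in negative and 0.511, 1.08 and 0.742 RPKM in positive cells, and the groups overlapped.

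*SEMA3E*, the plexin D1 ligand, was a rare transcript whose changes rest on few reads. SW1990 libraries held 46, 43 and 49 reads of it in negative and 4, 4 and 14 reads in positive cells, or 0.333, 0.275 and 0.412 against 0.0306, 0.0350 and 0.117 RPKM. CFPAC-1 libraries held 16, 10 and 12 reads in negative and 117, 93 and 15 reads in positive cells, or 0.122, 0.0680 and 0.0895 against 0.665, 0.736 and 0.224 RPKM. Neither line showed overlap in RPKM, and positive CFPAC-1 replicate 3 was well below the other positive samples. The log2 changes were -1.48 in SW1990 (SE 0.37, limma adjusted p = 0.0102) and 1.62 in CFPAC-1 (SE 0.37, limma adjusted p = 0.00539). The sizes depend on the pseudocount: with 1 they were -0.34 and 0.48 and not called, with 0.01 they were -2.49 and 2.28, and voom on recovered reads gave -2.61 and 2.56. The test of the difference between lines, given below, was called under each of these, with values from -5.17 to -0.82.

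*SEMA3A*, the founding axon repellent of the class, differed little within a line. It was at 31, 33.2 and 33.2 RPKM in negative and 27.8, 29.5 and 30.4 RPKM in positive SW1990 cells, and at 84.3, 87.9 and 94.4 RPKM and 84.2, 75.5 and 72.2 RPKM in the CFPAC-1 groups. Positive samples lay below negative ones in both lines, by log2 differences of -0.15 (SE 0.08, limma adjusted p = 0.202) and -0.20 (SE 0.08, limma adjusted p = 0.0711), which did not pass the test. *SEMA3D* was at most 0.0778 RPKM in SW1990, and in CFPAC-1 it was at 2.28 to 3.5 RPKM in negative and 3.27 to 7.63 RPKM in positive cells, with overlap. *SEMA3G* held at most 10 reads in any library. *SEMA3A*, *SEMA3C*, *SEMA3D* and *SEMA3E* lie within 4.44 Mb on the minus strand of chromosome 7 (chr7:80371854-84816372, GRCh37). Of these neighbours, *SEMA3C* and *SEMA3E* were called lower in SW1990 while the other two were not called in either line.

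The make-up of the secreted ligands followed from these levels. *SEMA3C* took 57.6% to 68.0% of the summed class 3 RPKM in negative SW1990 samples and 12.2% to 17.5% in positive ones. In the same groups the share of *SEMA3B* was 3.49% to 6.06% and 29.0% to 36.9%, and that of *SEMA3A* 21.6% to 27.8% and 41.9% to 47.1%. The leading class 3 transcript was thus *SEMA3C* in negative and *SEMA3A* in positive SW1990 cells. In CFPAC-1 *SEMA3A* led in all 6 samples at 60.0% to 65.6%, while *SEMA3B* took 19.6% to 20.0% in negative and 6.63% to 12.9% in positive samples and *SEMA3C* 11.8% to 15.2% and 18.4% to 24.1%. The class 3 sum of SW1990 samples lay between 112 and 153 RPKM without the antigen and between 59.0 and 70.5 RPKM with it. These shares are a description of each sample and carry no test.

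**Figure D2:**
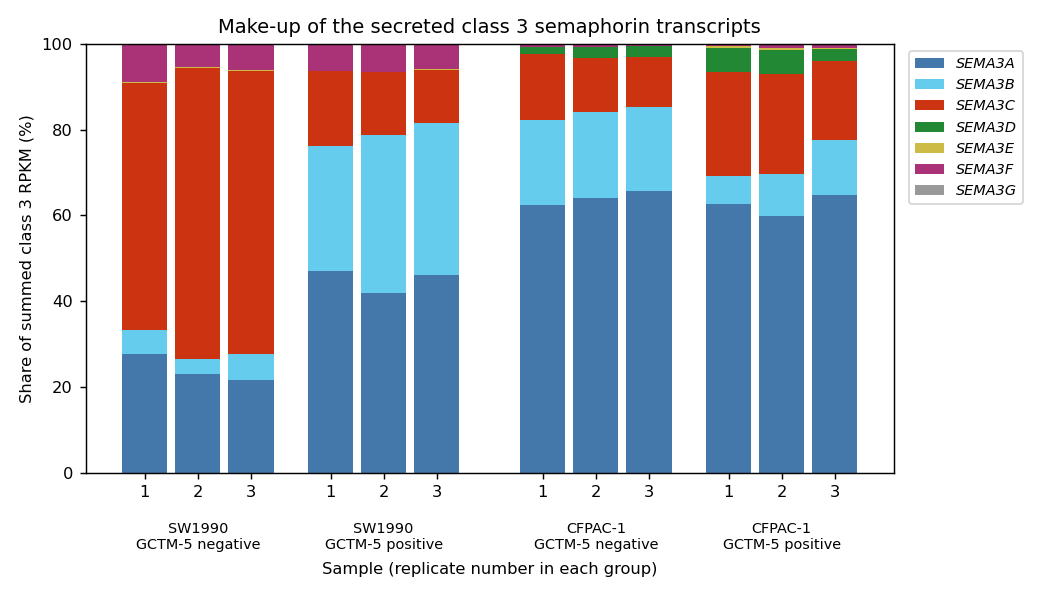
Share of each class 3 semaphorin in the summed class 3 RPKM of a sample, in percent, with 1 stacked bar per sample and 3 samples in each of the 4 groups. *SEMA3C* fills 57.6% to 68.0% of the bars of GCTM-5 negative SW1990 cells and 12.2% to 17.5% of those of positive SW1990 cells, while *SEMA3A* fills 60.0% to 65.6% of every CFPAC-1 bar.

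*SEMA4A* and *SEMA4B* were the class 4 members that changed. *SEMA4A*, a ligand best known from immune cells and the retina, was at 0.366, 0.286 and 0.524 RPKM in negative and 2.22, 3.75 and 3.66 RPKM in positive SW1990 cells. In CFPAC-1 it was at 2.22, 1.91 and 2.14 RPKM in negative and 4.45, 4.52 and 5.17 RPKM in positive cells. Every positive sample was above every negative sample of its line, 8.19-fold higher by the means in SW1990 and 2.26-fold in CFPAC-1. The log2 changes were 2.74 (SE 0.23, limma adjusted p = 3.48e-06) and 1.14 (SE 0.23, limma adjusted p = 0.00256), the latter 0.89 and not called with a pseudocount of 1.

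*SEMA4B* was the most abundant member in CFPAC-1, while in SW1990 the means of *SEMA3C* in negative and *PLXNA1* in positive cells were higher. In CFPAC-1 it was at 321, 314 and 304 RPKM in negative and 102, 141 and 155 RPKM in positive cells, 2.36-fold lower in the positive cells and without overlap. The log2 change was -1.26 (SE 0.13, limma adjusted p = 6.05e-05). In SW1990 it was at 66.4, 66.2 and 74.2 RPKM in negative and 48.7, 54.6 and 56.1 RPKM in positive cells. These groups did not overlap either, but the log2 difference of -0.37 (SE 0.13, limma adjusted p = 0.0549) was under 2-fold. *SEMA4B* made up 60.2% to 61.7% of all semaphorin RPKM in negative CFPAC-1 samples and 34.6% to 45.5% in positive ones. The remaining class 4 genes were not called. *SEMA4C*, a plexin B2 ligand, had log2 differences of -0.47 in SW1990 (SE 0.13, limma adjusted p = 0.0163) and -0.61 in CFPAC-1 (SE 0.13, limma adjusted p = 0.00347) without overlap in either line, and *SEMA4D*, *SEMA4F* and *SEMA4G* had differences from -0.43 to 0.30. *SEMA4G* overlaps *MRPL43* on the other strand and *MIR608* on its own, and whether the authors counted reads by strand is not given in the sources used here.

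*SEMA7A*, an activator of integrin signalling, rose in SW1990. It was at 6.54, 5.12 and 6.12 RPKM in negative and 13.3, 14.9 and 12.8 RPKM in positive SW1990 cells, with a log2 change of 1.2 (SE 0.26, limma adjusted p = 0.00455). The groups were 2.31-fold apart and did not overlap. In CFPAC-1, at 28.9, 15.6 and 14.2 RPKM in negative and 21.8, 20.2 and 36.4 RPKM in positive cells, the spread within groups exceeded the difference, and the change in SW1990 was not shown to differ from that in CFPAC-1 (log2 difference 0.76, SE 0.37, limma adjusted p = 0.152). *SEMA6B*, a ligand of A plexins and the leading class 6 transcript in SW1990, was at 19.2, 19.6 and 23.5 RPKM in negative and 9.70, 9.59 and 12.4 RPKM in positive SW1990 cells. It was at 1.45, 0.951 and 0.916 RPKM and 0.504, 0.730 and 0.662 RPKM in the CFPAC-1 groups, again without overlap. Its log2 differences of -0.97 (SE 0.19, limma adjusted p = 0.00252) and -0.70 (SE 0.19, limma adjusted p = 0.0143) stayed under 2-fold. In SW1990 it was called without negative replicate 1 or 2, or without positive replicate 3. *SEMA5A*, the leading class 5 transcript, was at 0.0618, 0.153 and 0.177 RPKM in negative and 0.218, 0.404 and 0.229 RPKM in positive SW1990 cells, and at 0.0087, 0.0155 and 0 RPKM and 0, 0.00902 and 0 RPKM in the CFPAC-1 groups, where no library held over 4 reads. It was not called in SW1990 except with quantile normalization. *SEMA6A* and *SEMA6C* were under 2 RPKM in every sample and were not called, and *SEMA5B* and *SEMA6D*, which missed the level filter, were under 0.03 RPKM throughout.

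**Figure D3:**
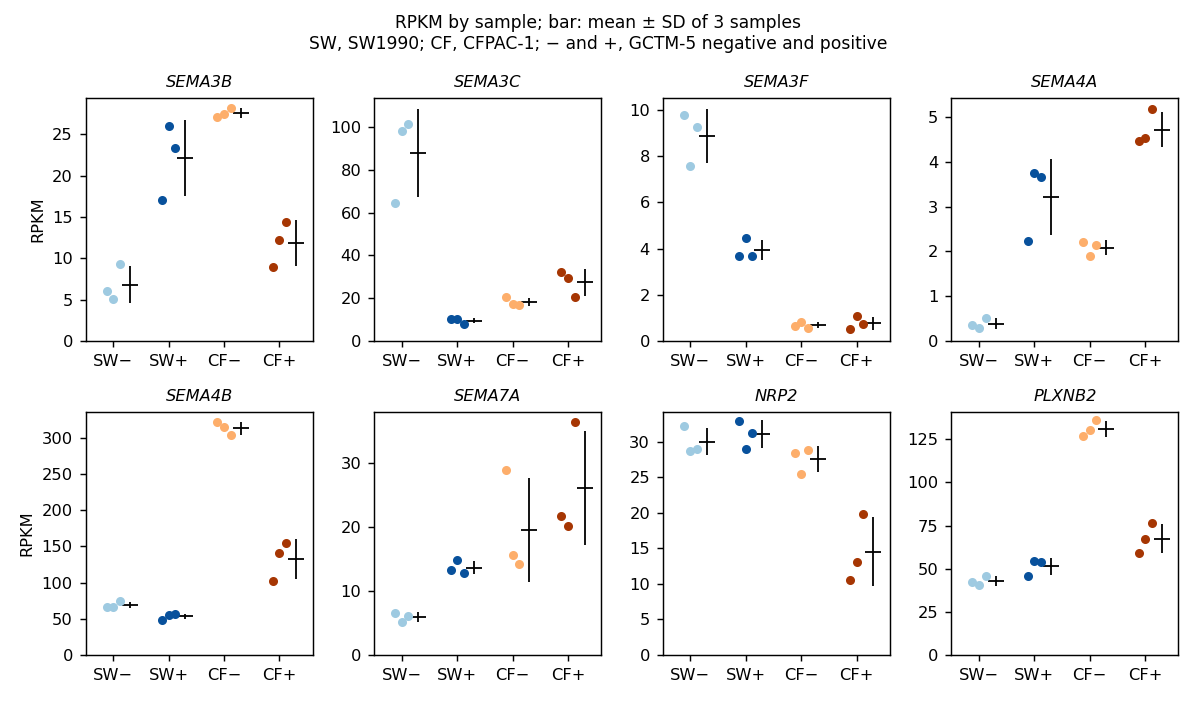
RPKM of 8 members in each of the 12 samples, with points for samples and a black mark for the mean ± SD of the 3 samples in a group. *SEMA3B* is higher in positive SW1990 and lower in positive CFPAC-1 cells, *SEMA4A* is higher in positive cells of both lines, and the points of *NRP2* and *PLXNB2* lie lower for positive than for negative CFPAC-1 cells.

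The neuropilins, co-receptors that bind class 3 semaphorins and VEGF, were abundant in all groups. *NRP1* was at 26.3, 27.2 and 24.5 RPKM in negative and 24.4, 20.8 and 18.5 RPKM in positive SW1990 cells, and at 91.9, 81.2 and 84.2 RPKM and 67.0, 64.0 and 78.5 RPKM in the CFPAC-1 groups. Positive samples were lower without overlap in both lines, by log2 differences of -0.29 (SE 0.11, limma adjusted p = 0.0691) and -0.30 (SE 0.11, limma adjusted p = 0.0528), which did not pass the test. *NRP2* was at 32.2, 28.8 and 29.1 RPKM in negative and 32.9, 29.0 and 31.2 RPKM in positive SW1990 cells, which overlapped. In CFPAC-1 it was at 28.5, 25.5 and 28.9 RPKM in negative and 10.5, 13.1 and 19.9 RPKM in positive cells. Its log2 difference there was -0.97 (SE 0.18, limma adjusted p = 0.00147), just under 2-fold. Leaving out positive CFPAC-1 replicate 3 made it -1.23 and leaving out negative CFPAC-1 replicate 2 made it -1.03, both called, as it also was with median centring (-1.07).

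A ratio of *NRP1* to *NRP2* within a sample does not depend on the scaling between samples. Its log2 value in SW1990 was -0.21 ± 0.11 without the antigen and -0.55 ± 0.17 with it (SD, n = 3 each), and in CFPAC-1 it was 1.63 ± 0.08 without and 2.31 ± 0.35 with it. SW1990 cells thus held somewhat more *NRP2* than *NRP1*, and CFPAC-1 cells several times more *NRP1*. With 3 samples against 3 the smallest 2-sided p of an exact permutation test is 0.1, which was the value in each line.

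*PLXNB2*, a receptor of class 4 semaphorins and the most abundant plexin in CFPAC-1, lay on the same edge of the criterion. In CFPAC-1 it was at 127, 130.3 and 136 RPKM in negative and 59.2, 66.9 and 76.3 RPKM in positive cells, with a log2 difference of -0.96 (SE 0.10, limma adjusted p = 6.65e-05). The groups were far apart, and it was called at -1.06 when positive replicate 3 was left out. In SW1990 it was at 42.4, 40.3 and 45.8 RPKM in negative and 45.8, 54.4 and 53.6 RPKM in positive cells, where the groups overlapped narrowly. *PLXNB1*, the receptor of *SEMA4D*, was at 5.4, 3.55 and 6.0 RPKM in negative and 6.75, 7.60 and 8.12 RPKM in positive SW1990 cells, and at 11.6, 11.2 and 10.9 RPKM and 9.52, 7.0 and 11.4 RPKM in the CFPAC-1 groups. Positive SW1990 samples were all above the negative ones, whereas the CFPAC-1 groups overlapped. *PLXNB3* overlaps *SRPK3* on the same strand, was between 2.36 and 6.18 RPKM in all samples and was not called.

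*PLXNA1*, a signalling partner of neuropilins, led the A plexins. It was at 38.4, 34 and 42.2 RPKM in negative and 50.3, 55.3 and 54.9 RPKM in positive SW1990 cells, and at 23.5, 19.9 and 21.2 RPKM and 18.6, 17.7 and 31.4 RPKM in the CFPAC-1 groups. The SW1990 groups did not overlap, but the log2 difference of 0.49 (SE 0.18, limma adjusted p = 0.0617) did not pass the test. *PLXNA2* was at 10.2, 7.16 and 7.04 RPKM in negative and 6.67, 3.98 and 4.55 RPKM in positive SW1990 cells. In CFPAC-1 it was at 0.198, 0.160 and 0.189 RPKM in negative and 0.284, 0.200 and 0.579 RPKM in positive cells, with the highest value again in positive replicate 3. *PLXNA4* had 51, 42 and 36 reads in negative and 6, 1 and 0 reads in positive SW1990 libraries, and it was not detected at this depth in CFPAC-1. All negative SW1990 libraries were above the positive ones. Fitted without the level filter, over 19654 genes, the log2 change of *PLXNA4* in SW1990 was -1.13 (SE 0.13, limma adjusted p = 6.32e-05). The CFPAC-1 samples, all at 0, add no spread to this fit, so its SE and p-value may be too small. *PLXND1*, the receptor of *SEMA3E* and the leading member of the C and D plexins, was at 17.9, 17.5 and 19.8 RPKM in negative and 10.6, 12.4 and 14.7 RPKM in positive SW1990 cells, and at 3.51, 2.84 and 3.04 RPKM and 2.68, 2.86 and 2.29 RPKM in the CFPAC-1 groups. Its SW1990 groups did not overlap, at a log2 difference of -0.56 (SE 0.14, limma adjusted p = 0.011) under 2-fold. *PLXNC1*, the receptor of *SEMA7A*, was under 1 RPKM in every sample, and *PLXNA3*, which overlaps *LAGE3* on the other strand, was at 2.68 to 8.77 RPKM. Neither was called.

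Across the set, the groups did not overlap for 19 of 28 members in SW1990, with 7 above and 12 below in positive cells, against 43.3% of all genes tested. In CFPAC-1 they did not overlap for 12 of 28 members, with 3 above and 9 below, against 48.5% of all genes. The median log2 difference over the tested members was -0.22 in SW1990 and -0.23 in CFPAC-1, beside -0.04 and 0.05 over all genes tested. More members lay below 0 than above it in each line, 18 against 10, beside 8698 against 7358 of all genes in SW1990 and 7404 against 8763 in CFPAC-1.

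Whether the change with the antigen differed between the lines was tested directly, and was called at a limma adjusted p under 0.05. This held for 10 of 28 members (35.7%), against 26.9% of all genes. The change was more positive in SW1990 for 6 members, against 9.16% of all genes, and more negative for 4, against 17.8%. The former were *SEMA3B* (log2 difference between lines 2.95, SE 0.32, adjusted p = 6.77e-05), *SEMA4A* (1.60, SE 0.32, adjusted p = 0.00328), *PLXNB2* (1.22, SE 0.15, adjusted p = 0.000124), *NRP2* (1.02, SE 0.25, adjusted p = 0.0104), *PLXNB1* (0.90, SE 0.28, adjusted p = 0.0338) and *SEMA4B* (0.89, SE 0.19, adjusted p = 0.00469). The latter were *SEMA3C* (-3.72, SE 0.28, adjusted p = 7.85e-06), *SEMA3E* (-3.10, SE 0.52, adjusted p = 0.00115), *PLXNA2* (-1.29, SE 0.42, adjusted p = 0.0395) and *SEMA3F* (-1.27, SE 0.32, adjusted p = 0.0128). The median of this difference over all genes was -0.15 as deposited and 0.00 after each sample was centred on its median, and of the calls over all genes 34% were more positive as deposited and 50% after centring. The 10 differences exceeded that shift in size, and with centring all but *PLXNA2* were called. In CFPAC-1, 57.7% of all calls were higher as deposited and 45.8% after centring. *PLXNA2* was lost in 13 of 21 alternatives, 10 of them with 1 sample left out, and *PLXNB1* in 8 of 21, all of them with 1 sample left out. Without positive CFPAC-1 replicate 3 the *PLXNA2* difference was -0.95, and without negative SW1990 replicate 2 that of *PLXNB1* was 0.68.

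**Figure D4:**
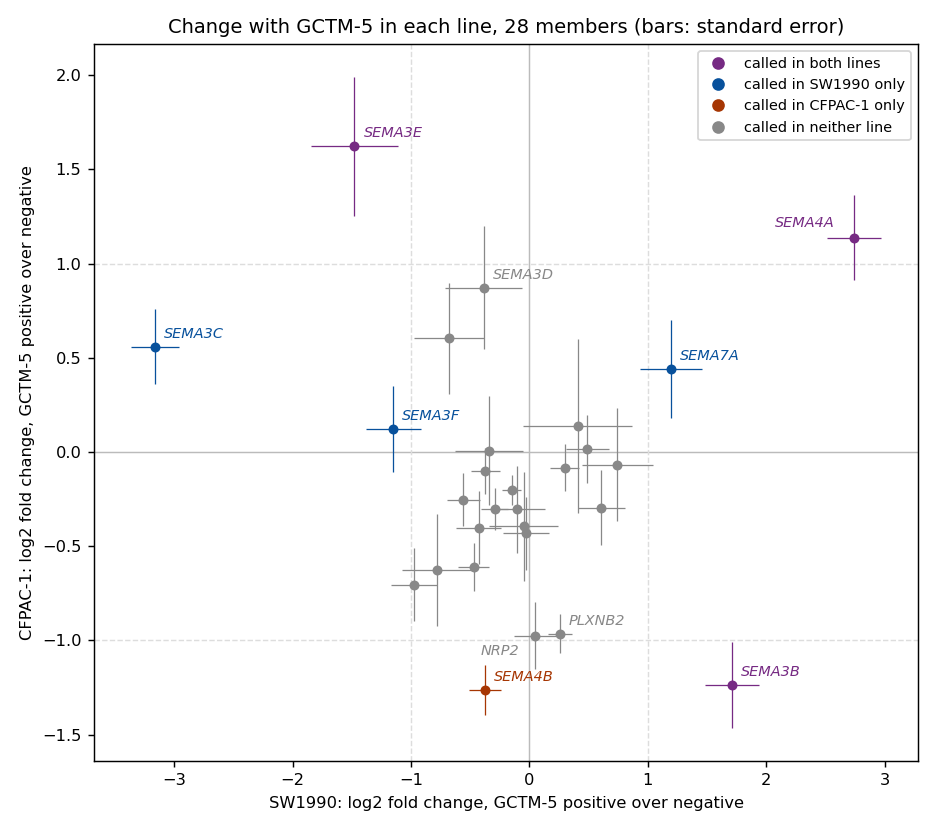
Log2 change with GCTM-5 (positive over negative cells) of the 28 tested members in SW1990 on the x axis and in CFPAC-1 on the y axis, with bars for the standard error, dashed lines at 2-fold and colours for the lines in which a member was called. *SEMA4A* lies in the upper right at 2.74 and 1.14, *SEMA3B* in the lower right, *SEMA3E* in the upper left, and *NRP2* and *PLXNB2* sit just above the lower dashed line.

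The lines also differed from each other in their repertoire. Between negative cells, 7 of 28 members were over 2-fold higher in SW1990, against 21.9% of all genes, and 11 lower, against 15%. Between positive cells, 8 members were higher in SW1990, against 14.8% of all genes, and 8 lower, against 13.7%. The receptors *PLXNA2* and *PLXND1* were higher in SW1990 in both comparisons, by 4.85 (SE 0.30) and 2.52 (SE 0.14) on the log2 scale in negative and 3.56 (SE 0.30) and 2.22 (SE 0.14) in positive cells. The ligands *SEMA6B* and *SEMA3F* were also higher in SW1990 in both, by 4.13 (SE 0.19) and 3.52 (SE 0.23) in negative cells. *SEMA3A*, *SEMA3D*, *SEMA4B*, *SEMA4D*, *SEMA4G* and *NRP1* were lower in SW1990 in both comparisons, *SEMA3D* with log2 values of -4.36 (SE 0.33) and -5.61 (SE 0.33) and *NRP1* with -1.72 (SE 0.11) and -1.71 (SE 0.11). *SEMA3C* and *SEMA3E* changed order between the comparisons. *SEMA3C* was 2.23 higher (SE 0.20) in negative SW1990 cells and had a log2 value of -1.49 (SE 0.20) in positive ones. The *SEMA3E* values were 1.18 (SE 0.37) and -1.92 (SE 0.37). The gap between these values is the difference between lines given above, so the change of order is no further result. The median over all genes was 0.19 between negative cells as deposited and 0.01 after centring, and with centring or quantile normalization *SEMA3E* and *SEMA5A* were no longer called between negative cells.

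Other genes of the pathway came from a list of co-receptors, intracellular effectors, further neuropilin ligands and semaphorin processing proteases, of which 44 were tested. The list was chosen with earlier results of these data known. In SW1990, 2 of 44 rose and 5 fell, against the same 4.59% and 7.48% of all genes, and in CFPAC-1 1 rose and 3 fell, against 5.65% and 4.13%. *NRCAM*, a cell adhesion molecule and neuropilin co-receptor, was the partner called in both lines and, like *SEMA3E*, was lower in positive SW1990 and higher in positive CFPAC-1 cells. It was at 1.96, 1.98 and 1.96 RPKM in negative and 0.254, 0.361 and 0.135 RPKM in positive SW1990 cells, and at 0, 0.0547 and 0.0300 RPKM (0, 8 and 4 reads) and 0.560, 0.478 and 0.540 RPKM in the CFPAC-1 groups. The log2 changes were -2.61 (SE 0.27, limma adjusted p = 1.94e-05) and 2.31 (SE 0.27, limma adjusted p = 0.00011), and neither line showed overlap. With a pseudocount of 1 it was no longer called in CFPAC-1. The other partners with the largest changes in SW1990 were *DPYSL3*, a collapsin response mediator, which fell by 3.41 (SE 0.22, limma adjusted p = 4.8e-07), and *PGF*, a VEGF family ligand of neuropilins, which fell by 2.30 (SE 0.15, limma adjusted p = 6.35e-07). Those in CFPAC-1 were *PCSK6*, a proprotein convertase, which fell by 1.92 (SE 0.43, limma adjusted p = 0.00483), and the integrin *ITGA1*, which fell by 1.45 (SE 0.21, limma adjusted p = 0.000363). In SW1990 *ITGA1* was at -0.996 (SE 0.21, limma adjusted p = 0.00352), just under 2-fold. Its change was not shown to differ between the lines (log2 difference 0.46, SE 0.30, limma adjusted p = 0.281). All of these values are log2 changes, and *PCSK6* held at most 23 reads in a positive CFPAC-1 library.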

How the data were processed

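RNA of 12 samples, 3 in each of 4 groups set by cell line and GCTM-5 sort, was sequenced by the authors after polyA selection. The authors aligned reads to hg19 (GRCh37) and deposited RPKM values made with QuasR, that is, read counts scaled by gene length and library size. The annotation, the use of strand and the treatment of reads that match several genes are not given in the sources used here. The labels and the paper name different library kits, secondary antibodies and media.

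Values of log2(RPKM + 0.1) of the 16236 genes with a mean of at least 0.1 RPKM were fitted as 4 group means with limma 3.58.1 in R 4.3.3 (lmFit, contrasts.fit and eBayes with trend), 2-sided. TCC, which the study names, was not used. Whole reads and library totals were recovered from the RPKM values with the lengths of single-exon genes in GENCODE 44 on GRCh37, and all values of 19654 of 19654 genes above 0 came out whole within 0.01 of a read. For each gene the smallest length that gave whole numbers was kept, so its reads are fixed only up to a common factor. A fitting length is easy to find for a gene with few reads, so this is no check of low read numbers. Recovered reads summed to 99.93% to 99.96% of the library totals. Positions are from that annotation and promoters from RefSeq (GRCh38.p14). Read numbers carry counting error, and reads are not independent molecules after PCR. Scripts were tested on simulated data. Python 3.11.15, pandas 2.3.3, scipy 1.17.1 and matplotlib 3.10.9 were used.

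All 31 members are accounted for, with values in every sample for called members and the leading member of each class. Partner genes are named when called in both lines or among the 3 largest changes of a line. Some genes of the marker lists are not reported here. The members and lists were chosen with earlier results of these data known. Alternatives were pseudocounts of 1 and 0.01, other level filters, median centring, quantile normalization, a replicate block, no trend, adjusted p, no fold threshold, voom on the recovered reads and leaving out each sample.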

Additional observations from a re-analysis of the deposited data

Results flagged for a closer look

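The change with GCTM-5 differed between the lines, by the test of that difference, for 10 members. The SW1990 change minus the CFPAC-1 change, on the log2 scale, was 2.95 for *SEMA3B*, 1.60 for *SEMA4A*, 1.22 for *PLXNB2*, 1.02 for *NRP2*, 0.90 for *PLXNB1* and 0.89 for *SEMA4B*. It was -3.72 for *SEMA3C*, -3.10 for *SEMA3E*, -1.29 for *PLXNA2* and -1.27 for *SEMA3F*. These share the samples of both lines and are not independent of each other. *SEMA4A* rose in both lines and did so by more in SW1990, *SEMA3B* and *SEMA3E* were called in opposite directions, and *PLXNA2*, *PLXNB1*, *PLXNB2* and *NRP2* were called in neither line alone. With 3 samples in each group, no group was large enough to be searched for outlying samples.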

How the results depend on the processing

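Of 20 changes of single members, 14 were called under every alternative in which the member was tested, 6 were lost under at least 1 and 0 reversed. Dropping the fold threshold could not lose a call. With a pseudocount of 1, which shrinks low genes, 1 member was called lower in SW1990 in place of 3 and 0 higher in CFPAC-1 in place of 2, as *SEMA3E*, *SEMA3F* and, in CFPAC-1, *SEMA4A* fell short of 2-fold. Calls over all 16236 genes fell too. In SW1990 they went from 746 to 489 higher and from 1215 to 612 lower, and in CFPAC-1 from 917 to 475 and from 671 to 284. A mean of at least 1 RPKM left 1 member higher in CFPAC-1, since *SEMA3E* was then not tested. Without a level filter, *PLXNA4* was also called lower in SW1990 and for the difference between lines (log2 difference -1.13, SE 0.18, limma adjusted p = 0.00113). As it was at 0 in every CFPAC-1 sample, that difference is the SW1990 change itself and shows no response of CFPAC-1. Median centring gave 4 members lower in CFPAC-1, with *NRP2* (-1.07) and *PLXNB2* (-1.06) added, voom and quantile normalization added *NRP2* in CFPAC-1, and quantile normalization also added *SEMA5A*, as higher, in SW1990. Over all genes, 858 were lower in CFPAC-1 with median centring, 742 with voom and 771 with quantile normalization, against 671 in the main fit. In SW1990, 878 were higher with quantile normalization, against 746. Without the fold threshold, 6 members were lower in SW1990 and 6 in CFPAC-1. Of the partners, 8 were then higher and 12 lower in SW1990, and 7 higher and 10 lower in CFPAC-1. The share of all genes called without that threshold was not taken, so nothing can be read from the size of these counts. For the partners, a pseudocount of 1 gave 3 lower in SW1990, and 0 higher and 1 lower in CFPAC-1. In CFPAC-1, 2 partners were higher with a pseudocount of 0.01 or with voom and 0 with a mean of at least 1 RPKM. With 1 sample left out in turn, the members called were 3 higher under each omission and 3 to 5 lower in SW1990 (5 without negative SW1990 replicate 2, with *SEMA6B* and *SEMA6C* added), 2 to 3 higher in CFPAC-1 (3 without positive CFPAC-1 replicate 3, with *SEMA3D* added) and 2 to 4 lower (4 without that same sample). They were 5 to 8 and 3 to 4 for the difference between lines, 5 to 7 and 10 to 12 between negative cells and 7 to 9 and 8 to 9 between positive cells. Partners called were 2 higher under each omission and 4 to 6 lower in SW1990, and 1 to 2 higher (2 without negative CFPAC-1 replicate 1 or positive CFPAC-1 replicate 2) and 2 to 4 lower in CFPAC-1. The difference in the log2 ratio of *NRP1* to *NRP2* lay between -0.41 and -0.25 for SW1990 and between 0.50 and 0.85 for CFPAC-1. The cause of these shifts was not tested beyond what each alternative itself leaves out.

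Same-numbered positive and negative samples of a line correlated, in their deviations from the group means, by 0.18, 0.02 and 0.12 in SW1990 and -0.02, 0.00 and -0.06 in CFPAC-1, so the replicate numbers were not taken to pair the samples. With the replicate block, 3 members were higher and 3 lower in SW1990, 2 and 2 in CFPAC-1, and 6 and 4 for the difference between lines. Of the partners, 2 in place of 3 were lower in CFPAC-1. As coded, the block set comparisons between the lines at the level of replicate 1 of each line. Between negative cells the median over all genes thus moved from 0.19 to 0.18. There 5 in place of 7 members were higher in SW1990, *SEMA3E* and *SEMA5A* being lost, and these losses do not measure an effect of pairing. The block cannot change the ratio differences of -0.35 and 0.68, since each number occurs once in each group. The depth limits *SEMA5B* and *SEMA6D* most, which reached at most 0.0198 and 0.0280 RPKM in a sample. Next is *SEMA3G*, with at most 10 recovered reads in a library. *SEMA3E*, *SEMA5A* and *PLXNA4* also rest on few reads, and positive CFPAC-1 replicate 3 was the shallowest library.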
